A study of Mus musculus with 23 samples.

Results

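The miRNA loci mir-142a, mir-146a, mir-146b, mir-155, mir-223 and mir-21a, known from leukocytes, inflammatory signalling and reactive glia, were followed in mouse retina. They were taken by name from the mature rows of the deposited count matrix, and 6 of 6 were present among its 903 mature rows. Small RNA had been sequenced from 23 retinas at postnatal day 90, 1 library per retina. P23H+/- knock-in (KI) mice carry 1 rhodopsin allele with the P23H change, which misfolds and leads to photoreceptor loss, and are a model of retinitis pigmentosa. These mice were given nanoparticles with the genomic mouse rhodopsin gene (mouse gRho, 11 libraries of 7 mice) or the genomic human rhodopsin gene (human gRHO, 3 libraries of 2 mice), were given saline (2 libraries of 1 mouse) or were left uninjected (5 libraries of 3 mice). Wild-type (WT) C57B retinas gave 2 libraries, counted as 2 mice. The wild-type mice were untreated, as were the uninjected mice. The labels give neither the route of injection nor the time between injection and collection. With 1 saline mouse and 2 mice each for human gRHO and WT, those groups are small models of their condition.

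A miRNA is cut from a hairpin transcript, and 1 of its 2 arms (5p or 3p) usually persists in the silencing complex, where bases 2 to 8 of the mature strand, the seed, pair with target messages. miR-142 is made in cells of haematopoietic origin, resident microglia included, and miR-223 mainly in granulocytes and monocytes. miR-155 and miR-146a are induced by NF-kB signalling in activated macrophages and microglia, where miR-155 promotes inflammatory responses and miR-146a restrains them through Traf6 and Irak1 of that pathway. miR-146b has the seed of miR-146a and belongs to the same feedback. miR-21 is raised in many injured tissues and is associated with reactive astrocytes and Mueller glia. In a degenerating retina, microglia and Mueller glia respond to dying photoreceptors, which is why these loci are of interest here.

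Since the matrix does not say which arm a row counts, both mature strands of each locus are shown, as given by RefSeq on build GRCm38.p6, from 5′ to 3′ with the seed in capitals.
miR-142a-5p: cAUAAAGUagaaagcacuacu
miR-142a-3p: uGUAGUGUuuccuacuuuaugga
miR-223-5p: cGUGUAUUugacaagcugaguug
miR-223-3p: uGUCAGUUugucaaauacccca
miR-21a-5p: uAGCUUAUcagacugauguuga
miR-21a-3p: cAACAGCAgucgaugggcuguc
miR-155-5p: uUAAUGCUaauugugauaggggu
miR-155-3p: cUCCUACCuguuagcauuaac
miR-146a-5p: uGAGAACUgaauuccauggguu
miR-146a-3p: cCUGUGAAauucaguucuucag
miR-146b-5p: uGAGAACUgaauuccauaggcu
miR-146b-3p: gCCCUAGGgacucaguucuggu

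Among these 12 strands, miR-146a-5p and miR-146b-5p share a seed and are identical at 20 of 22 positions, and the 3p strands of these loci are identical at 4 of 22. Reads of the 5p strands can therefore be hard to separate, and the split between both rows is uncertain. The seed of miR-21a-5p also occurs in miR-21c. The hairpin of mir-142a lies at chr11:87756864-87756927 on the plus strand, inside the lincRNA gene Mir142hg and outside its exons, and overlaps Mir142b on the opposite strand (GENCODE vM21, build GRCm38). mir-146a lies at chr11:43374397-43374461 on the minus strand and overlaps no other annotated gene. mir-21a lies at chr11:86584067-86584158 on the minus strand, in an untranslated exon of Vmp1. mir-155 lies at chr16:84714140-84714204 on the plus strand, in an exon of its host RNA Mir155hg. mir-146b lies at chr19:46342762-46342870 on the plus strand, in an intron of Mfsd13a, and mir-223 at chrX:96242817-96242926 on the plus strand, in an exon of the noncoding RNA F630028O10Rik.

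The depth of mature miRNA reads ran from 5968388 to 16048954 per library, and levels are given relative to it as CPM, the reads of a row scaled to 1000000 mature miRNA reads. The mature rows of the matrix summed to 10.4% to 19.5% of that depth, so a CPM here is a relative level and not a share of all miRNA. Reads of retinal markers were found in every library but were uneven, and no threshold of retinal identity was set. The miR-183 cluster of photoreceptors (mir-183, mir-182 and mir-96) summed to between 52.9 and 1101 CPM. The right eye of mouse gRho mouse 1 had the lowest sum (52.9 CPM) and uninjected mouse 2 the next lowest (198 CPM). The neuronal miR-124 rows summed to 10.6 CPM in that right eye, beside 423 CPM in the left eye of the same mouse. Ribosomal RNA made up between 0.201% and 6.20% of aligned reads and exceeded 3% in 6 libraries, 3 of mouse gRho and 3 of uninjected mice. All uninjected mice share a leading number in their titles, and no such number recurs in another group. If it is a cage number, group and cage cannot be told apart.

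Among the 6 rows, those of mir-146a and mir-155 jumped between a handful of reads and at least 366. The other 4 showed no such jump and are called graded here. The jump rule asks for 30 reads in some library. The mir-146b row reached at most 28, so the rule could not have set it aside, and whether it is graded was not tested. The graded rows of mir-142a, mir-223, mir-21a and mir-146b were tested with edgeR's quasi-likelihood test on counts summed per mouse. In the 9 comparisons between groups, 0 of 4 passed an adjusted p of 0.05 in each, and 0 of 4 had an unadjusted p under 0.05 in each, with edgeR and with DESeq2. Across all 382 rows tested, the called share was 1.57% for uninjected over WT, 3.14% for mouse gRho over WT and 0% in the other 7 comparisons, where 3 to 38 rows had an unadjusted p under 0.05. DESeq2 called 14 rows for uninjected over WT, 18 for mouse gRho over WT, 5 for human gRHO over WT and 0 in the other 6. The edgeR counts over WT rested on single mice. For uninjected over WT, 6 rows were called, against 60 without WT mouse 1 and 0 without WT mouse 2 or any 1 of the uninjected mice. For mouse gRho over WT, 12 rows were called, against 64 without WT mouse 1 and 0 without WT mouse 2, and for human gRHO over WT the count was 46 without WT mouse 1. No difference between groups in these leukocyte and gliosis rows was thus detectable with these mice. A p above the threshold does not show that the groups were alike, and the intervals below give the sizes that remain possible. In bulk retina, fewer cells of a type and less RNA per cell cannot be told apart.

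**Figure D1:**
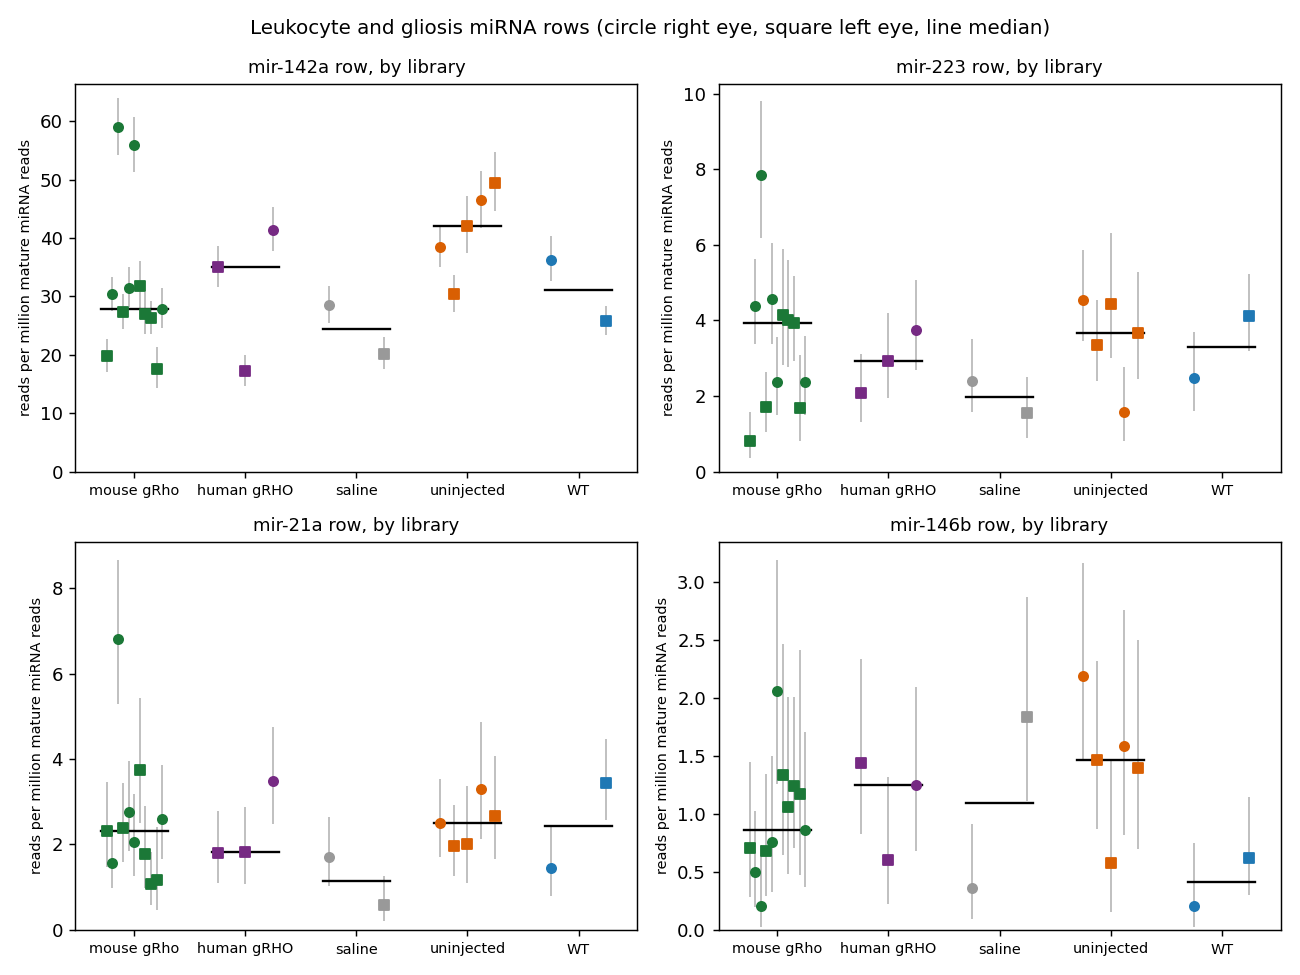
CPM of mature miRNA reads in each of 23 libraries for the rows of mir-142a, mir-223, mir-21a and mir-146b, by group. Circles are right eyes, squares are left eyes, black lines are medians and grey bars are exact 95% binomial intervals of counting. The libraries of the groups overlap, except that both saline libraries lie below all uninjected ones for mir-142a and mir-21a, below all human gRHO ones for mir-21a and below both WT ones for mir-223. The mir-142a row of mouse gRho libraries runs from 17.6 to 58.9.

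mir-142a, the marker of cells of haematopoietic origin, had the deepest graded row, with 105 to 579 reads per library. In mouse gRho libraries it ranged from 17.6 to 58.9 CPM with a median of 27.9 (n = 11). The human gRHO libraries held 41.4 and 35.0 CPM in the eyes of mouse 1 and 17.2 CPM in mouse 2, and the saline libraries 28.6 and 20.1 CPM. Uninjected libraries held 38.4, 30.3, 42.1, 46.4 and 49.5 CPM, and WT libraries 36.3 and 25.8 CPM. Uninjected retinas had the highest median (42.1 CPM) and saline retinas the lowest (24.3 CPM), and injected groups reached below the lowest uninjected library, in saline with both libraries. The highest libraries, the right eyes of mouse gRho mice 1 and 5 (58.9 and 55.9 CPM), lay above every uninjected library.

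Whether mir-142a was higher in uninjected than in WT retinas depended on scaling. Before composition scaling it averaged 41.5 ± 6.78 CPM in uninjected mice (SD, n = 3) and 31.0 ± 7.42 CPM in WT mice (SD, n = 2). After the composition factors of the TMM method, which ran from 0.734 in WT mouse 2 to 1.26 in uninjected mouse 3, the means were 36.0 ± 1.94 CPM in uninjected mice (SD, n = 3) and 36.4 ± 1.75 CPM in WT mice (SD, n = 2). The fitted log2 fold change was -0.02 (SE 0.34, 95% interval -0.73 to 0.69, edgeR adjusted p = 0.977). Without these factors it was 0.42 (adjusted p = 0.602), while the median of all rows moved by 0.43 in the same direction.

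No injected group passed the test against uninjected retinas for mir-142a. With mouse gRho the log2 fold change was -0.09 (SE 0.25, 95% interval -0.63 to 0.44, edgeR adjusted p = 0.982). With human gRHO it was -0.39 (SE 0.34, 95% interval -1.10 to 0.33, adjusted p = 0.930), and with saline -0.45 (SE 0.44, 95% interval -1.37 to 0.47, adjusted p = 0.910). All 3 intervals include 0. The human gRHO value was -1.04 without mouse 1 (adjusted p = 0.909) and -0.02 without mouse 2, whose library was the lowest of all. From low to high, the TMM-scaled means were 26.3 CPM for saline (1 mouse), 27.4 ± 14.5 CPM for human gRHO (SD, n = 2), 33.7 ± 10.5 CPM for mouse gRho (SD, n = 7), 36.0 CPM for uninjected and 36.4 CPM for WT. The saline value has no spread. In this order no neighbouring pair passed the edgeR test (adjusted p = 0.996, 0.997, 0.982 and 0.977).

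mir-223, of granulocytes and monocytes, was sparse, with 8 to 77 reads per library. It ranged from 0.805 to 7.84 CPM in mouse gRho libraries (median 3.94, n = 11). The human gRHO libraries held 3.74 and 2.07 CPM in mouse 1 and 2.93 CPM in mouse 2, and the saline libraries 2.41 and 1.55 CPM. Uninjected libraries held 4.54, 3.34, 4.44, 1.58 and 3.68 CPM, and WT libraries 2.49 and 4.11 CPM. The libraries of each group overlapped the uninjected range, and both saline libraries lay below both WT libraries. Both extremes came from 1 animal, since mouse gRho mouse 1 gave the highest library with its right eye (7.84 CPM, 95% binomial interval 6.19 to 9.80) and the lowest with its left eye (0.805 CPM). The fitted log2 fold changes were -0.34 (SE 0.46, 95% interval -1.30 to 0.63) for uninjected over WT, 0.11 (SE 0.35, -0.63 to 0.85) for mouse gRho over uninjected, -0.16 (SE 0.46, -1.14 to 0.81) for human gRHO over uninjected and -0.60 (SE 0.60, -1.87 to 0.67) for saline over uninjected. The first was 0.41 without WT mouse 2. Adjusted p-values ran from 0.718 to 0.993.

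mir-21a, the locus associated with gliosis, held few reads in its mature row and more in its precursor row. The mature row had 6 to 67 reads per library. It ranged from 1.08 to 6.82 CPM in mouse gRho libraries (median 2.31, n = 11), with 3.48 and 1.80 CPM in human gRHO mouse 1, 1.82 CPM in human gRHO mouse 2 and 1.70 and 0.581 CPM in the saline mouse. Uninjected libraries held 2.50, 1.96, 2.01, 3.30 and 2.66 CPM, and WT libraries 1.45 and 3.43 CPM. The WT libraries spanned all uninjected ones, and both saline libraries lay below every uninjected and human gRHO library. The log2 fold changes were -0.56 (SE 0.53, 95% interval -1.68 to 0.56, edgeR adjusted p = 0.605) for uninjected over WT, 0.25 (SE 0.41, -0.61 to 1.12, adjusted p = 0.982) for mouse gRho over uninjected, 0.08 (SE 0.54, -1.05 to 1.21, adjusted p = 0.999) for human gRHO over uninjected and -0.75 (SE 0.71, -2.26 to 0.75, adjusted p = 0.910) for saline over uninjected. The first became 0.56 without WT mouse 2.

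**Figure D2:**
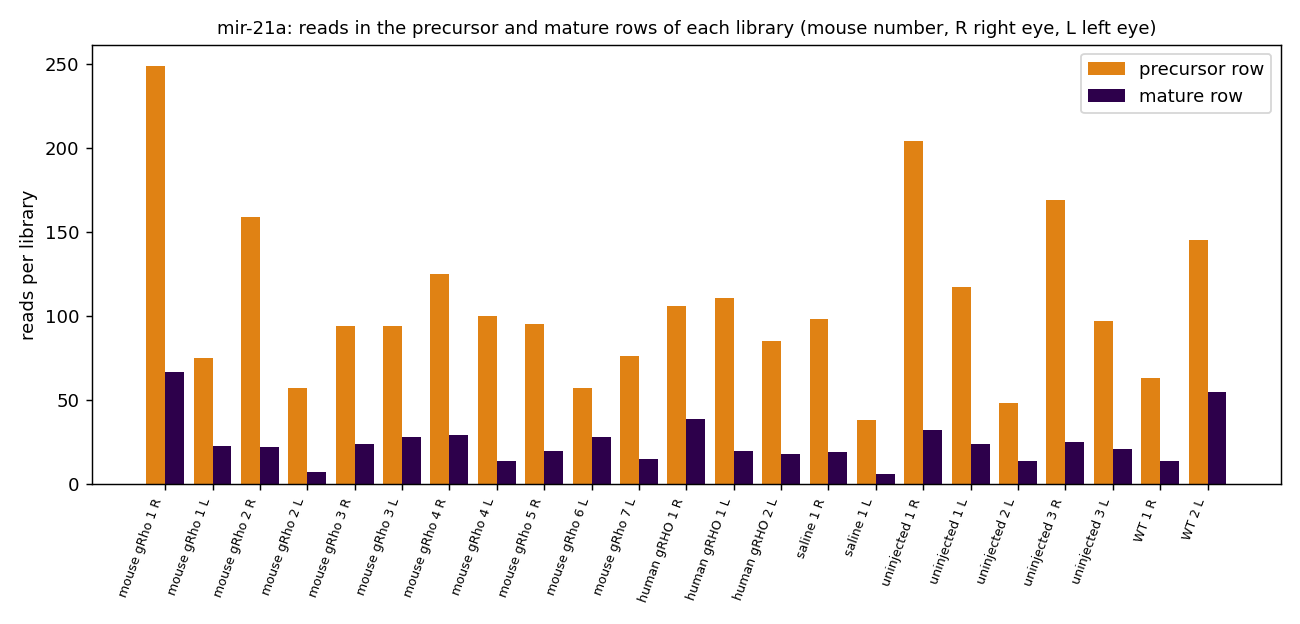
Reads of the mir-21a precursor row (orange) and mature row (purple) in each of 23 libraries, named by group, mouse number and eye. The precursor row holds more reads than the mature row in every library, by 2.04 to 8.14 times.

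The precursor row of mir-21a held 38 to 249 reads per library and 2462 in all, against 564 in the mature row. It exceeded the mature row in 23 of 23 libraries, by 2.04 to 8.14 times (median 4.72). It was the second largest of 231 precursor rows and made up between 5.36% and 20.1% of the reads of that class. Among the 34 precursor rows with at least 100 reads and a mature row, 3 exceeded their mature row, those of mir-21a, mir-33 and mir-3078. The other members had at most 1 precursor read, seen at mir-142a. Which part of the hairpin the precursor reads cover is not stated in the sources used here, and the 5p arm, usually the abundant one of this locus, cannot be told from either row.

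By group, the mir-21a precursor row ranged from 7.55 to 25.3 CPM with mouse gRho (median 9.55, n = 11). It held 9.45, 9.99 and 8.58 CPM in human gRHO libraries and 8.74 and 3.68 CPM in the saline libraries. Uninjected libraries held 16.0, 9.54, 6.88, 22.3 and 12.3 CPM, and WT libraries 6.53 and 9.03 CPM. One WT library lay inside the uninjected range and the other below it. In a fit of all annotation classes together, chosen after the data were seen, the precursor row differed by 0.22 (log2, SE 0.35, 95% interval -0.52 to 0.95, edgeR adjusted p = 0.760) for uninjected over WT. It differed by -0.09 (SE 0.26, -0.64 to 0.45, adjusted p = 0.978) for mouse gRho over uninjected, -0.27 (SE 0.35, adjusted p = 0.927) for human gRHO over uninjected and -0.69 (SE 0.46, -1.65 to 0.27, adjusted p = 0.895) for saline over uninjected. In that fit of 442 rows 1.58% were called for uninjected over WT and 0% in the 3 others.

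mir-146b, of the NF-kB feedback family, was the sparsest row with 2 to 28 reads per library. It ranged from 0.204 to 2.06 CPM in mouse gRho libraries (median 0.864, n = 11). The human gRHO libraries held 1.25 and 1.44 CPM in mouse 1 and 0.605 CPM in mouse 2, and the saline libraries 0.357 and 1.84 CPM. Uninjected libraries held 2.19, 1.47, 0.573, 1.58 and 1.40 CPM, and WT libraries 0.207 and 0.623 CPM. Among uninjected libraries 4 of 5 lay above both WT libraries, and 1 lay between them. The 95% binomial intervals of counting ran from 0.0251 to 0.749 CPM for the lower WT library, which had 2 reads, and from 1.46 to 3.17 CPM for the highest uninjected one, which had 28. The log2 fold change was 1.13 (SE 0.80, 95% interval -0.56 to 2.81, edgeR adjusted p = 0.491) for uninjected over WT, the widest interval among the 4 rows in that comparison, and it was 2.49 without WT mouse 2 and 0.58 without WT mouse 1. Treated retinas differed from uninjected ones by -0.21 (SE 0.55, -1.37 to 0.94) with mouse gRho, -0.28 (SE 0.73, -1.82 to 1.27) with human gRHO and -0.07 (SE 0.91, -1.98 to 1.84) with saline (adjusted p = 0.982, 0.993 and 0.996).

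**Figure D3:**
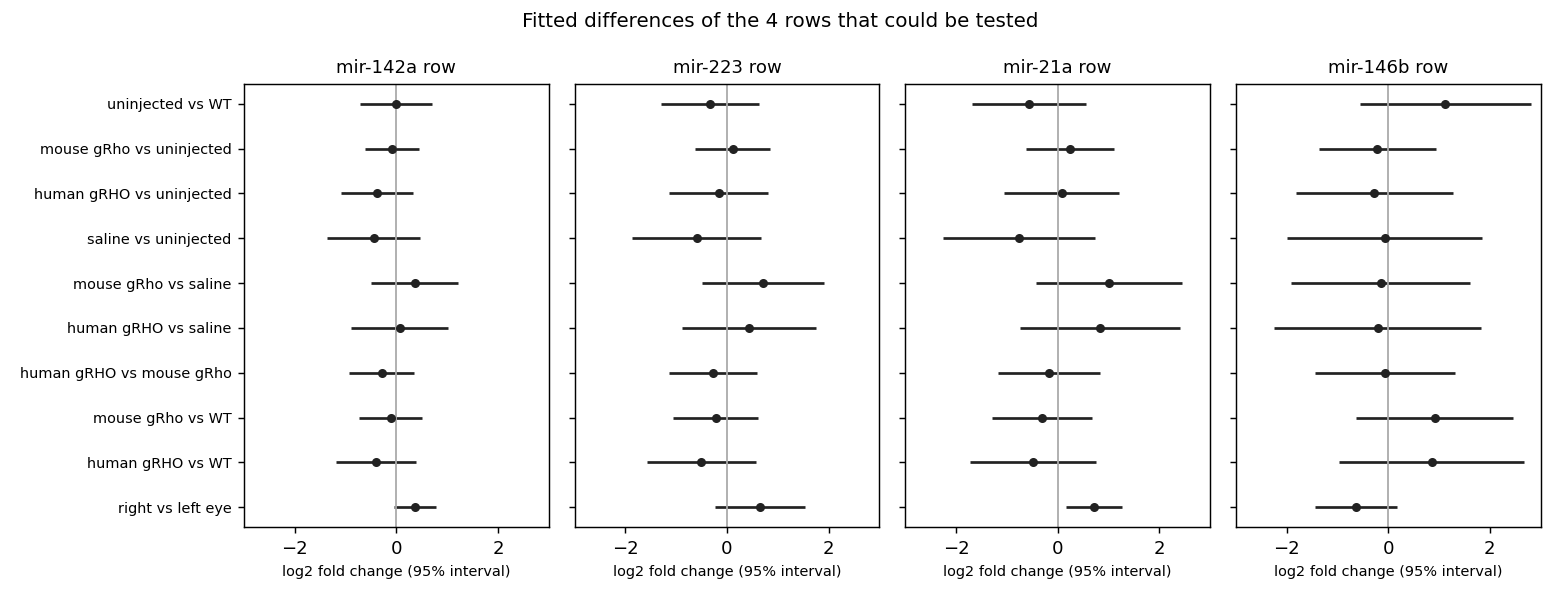
Fitted log2 fold changes of the 4 graded rows in 9 comparisons between groups and between right and left eyes, with the first named group over the second and bars for 95% intervals. Each interval between groups includes 0, and that of mir-21a between eyes runs from 0.17 to 1.27.

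Counted together, 1 of 4 graded rows was positive for uninjected over WT, with a median log2 fold change of -0.18 beside -0.09 over all rows. Over uninjected, 2 of 4 were positive with mouse gRho (median 0.0084 beside 0.08), 1 of 4 with human gRHO (median -0.22 beside 0.01) and 0 of 4 with saline (median -0.53 beside -0.0050). The saline values rest on 1 mouse, assumed to vary like the others. The other 5 comparisons gave adjusted p-values between 0.486 and 0.997 for the 4 graded rows. For human gRHO over mouse gRho, 4 of 4 values were negative, with a median log2 fold change of -0.22 beside -0.04 over all 382 rows. For mouse gRho over saline, 3 of 4 were positive, with a median of 0.53 beside 0.01 over all rows, and for human gRHO over saline 3 of 4, with a median of 0.25 beside -0.0011. Over WT, 1 of 4 was positive with mouse gRho (median -0.17 beside -0.0052) and 1 of 4 with human gRHO (median -0.44 beside 0.02). These comparisons share samples with those above and are not separate evidence.

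The rows of mir-146a and mir-155, the inducible pair of activated macrophages and microglia, could not be read as graded levels. mir-146a held 2237 to 10641 reads in 12 libraries and 1 to 5 reads in the other 11, with a gap of 7.85 on the log2(CPM + 0.5) scale. mir-155 held 366 to 2075 reads in 17 libraries and 1 to 4 reads in the other 6, with a gap of 5.17. Values between the levels did not occur. Of the 337 mature rows that reached 30 reads in a library, 65 (19.3%) jumped by the same rule, so these loci were among many. These rows were set aside from the tests, and no group difference is read from them.

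**Figure D4:**
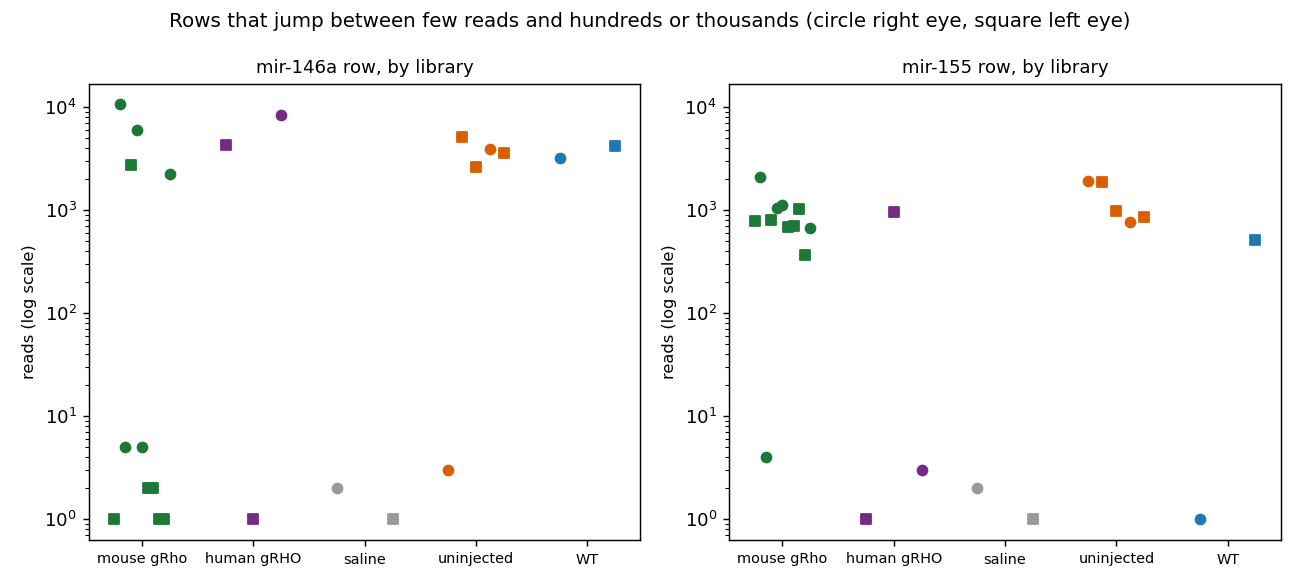
Reads of the mir-146a and mir-155 rows in each of 23 libraries, by group, on a log axis. Circles are right eyes and squares left eyes. Libraries sit either at 1 to 5 reads or at 366 reads and more, in both rows, and mouse gRho libraries occur at both levels of each row.

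The level could differ between libraries of a group and between the eyes of an animal. For mir-146a the upper level was seen in 4 of 11 mouse gRho, 2 of 3 human gRHO, 0 of 2 saline, 4 of 5 uninjected and 2 of 2 WT libraries. For mir-155 it was seen in 10 of 11 mouse gRho, 1 of 3 human gRHO, 0 of 2 saline, 5 of 5 uninjected and 1 of 2 WT libraries. In 3 of 8 mice with both eyes sequenced the eyes lay on different levels of mir-146a. Uninjected mouse 1, for example, had 3 reads in its right eye and 5165 in its left eye, and mouse gRho mouse 2 had 10641 in its right eye and 1 in its left eye. For mir-155 this held in 1 of 8 mice, mouse gRho mouse 1, with 4 reads on the right and 783 on the left. The rows did not jump together either. Both were at the upper level in 9 libraries, both at the lower in 3, mir-146a alone at the upper in 3 and mir-155 alone in 8. A jump of this size between the eyes of a mouse, with the graded leukocyte row of mir-142a at 38.4 CPM on the right and 30.3 CPM on the left in uninjected mouse 1, was far larger than any difference above, and its cause was not tested.

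Among libraries at the upper level, mir-146a lay between 235 and 754 CPM and mir-155 between 32.1 and 152 CPM. The mir-155 row of the 5 uninjected libraries held 151, 152, 141, 101 and 108 CPM. That of WT mouse 2 held 32.1 CPM, and WT mouse 1 had 1 read. The 10 mouse gRho libraries at the upper level ran from 61.3 to 147 CPM, and human gRHO mouse 2 held 97.6 CPM. In the mir-146a row, WT libraries held 330 and 260 CPM and upper-level uninjected libraries 421, 373, 521 and 457 CPM. Upper-level mouse gRho libraries ran from 235 to 754 CPM, and human gRHO mouse 1 held 751 and 388 CPM. Both rows were set aside without a test. Libraries were picked here by their level, so no group difference is read from these values.

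Right and left eyes of a mouse were then compared for the graded rows in 8 mice, since the spread within a mouse bears on each value above. In CPM without composition factors, mir-21a was higher in the right eye in 8 of 8 mice, with right-over-left log2 differences between 0.10 and 1.38. In the fit with a term for the mouse the log2 difference was 0.72 (SE 0.25, 95% interval 0.17 to 1.27, unadjusted p = 0.0147, edgeR adjusted p = 0.952). It did not pass over the 330 rows tested, of which 0% were called and 9 had an unadjusted p under 0.05. The counts behind it were low, such as 19 right and 6 left reads in the saline mouse or 32 and 24 in uninjected mouse 1. Mouse gRho mouse 3 had 24 right and 28 left reads, and its right eye was higher only after scaling to depth. The precursor row of mir-21a was higher on the right in 7 of 8 mice, by 0.61 (SE 0.20, 95% interval 0.17 to 1.05, unadjusted p = 0.0113, edgeR adjusted p = 0.968). mir-142a was higher on the right in 7 of 8 mice (0.36, SE 0.19, unadjusted p = 0.0784, adjusted p = 0.952), and mir-223 in 7 of 8 (0.65, SE 0.40, unadjusted p = 0.138, adjusted p = 0.952). mir-146b was higher on the right in 3 of 8 (-0.63, SE 0.36, unadjusted p = 0.111, adjusted p = 0.952). The red blood cell rows mir-451a and mir-144 were both higher on the right, with a median log2 difference of 0.79 beside -0.02 over all rows, and 0 of 2 passed. Other listed rows went both ways. Higher on the right were 2 of 2 pigment epithelium and glia rows (median 0.27) and 3 of 3 vessel rows (0.11). So were 2 of 2 muscle rows (0.17) and 3 of 5 surface epithelium rows (0.19). Among photoreceptor and miR-124 rows 0 of 3 each were higher (medians -0.27 and -0.33). Of the other leukocyte rows (mir-150, mir-342 and the mir-181a and mir-181b copies) 2 of 6 were higher (median -0.15). The part of all these rows in the member values was not tested.

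**Figure D5:**
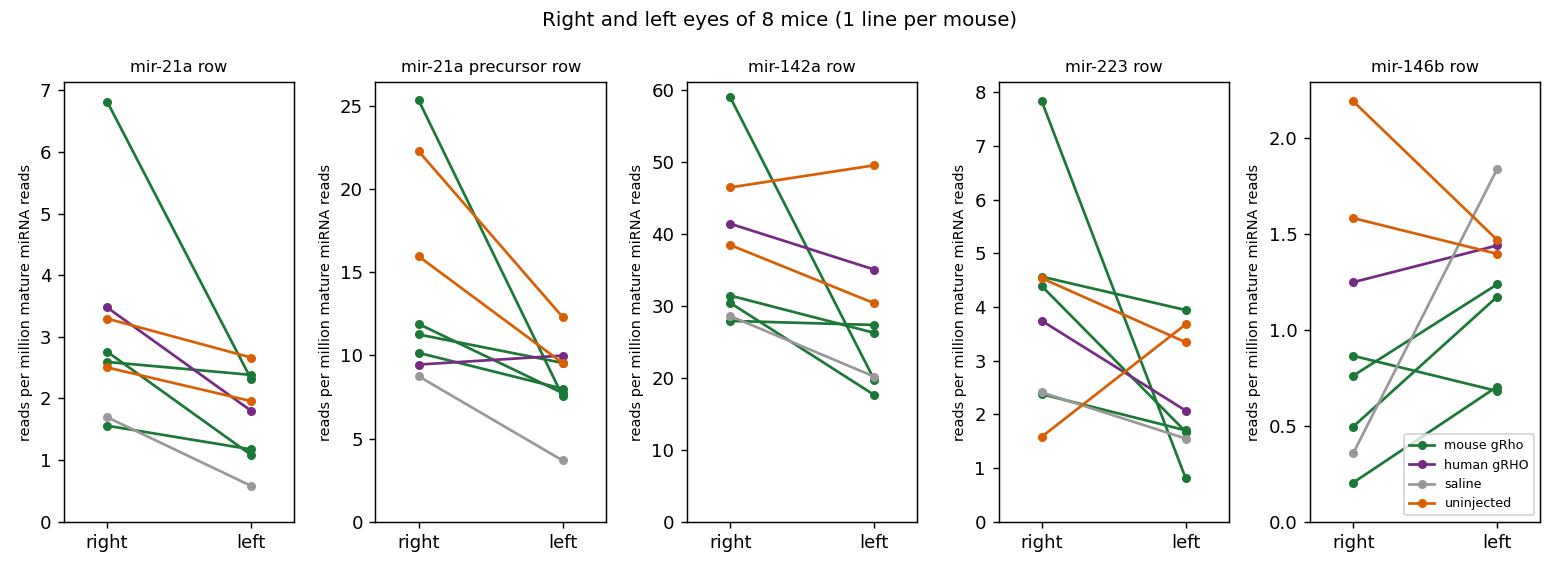
CPM of mature miRNA reads in the right and left eye of 8 mice for the mir-21a, mir-21a precursor, mir-142a, mir-223 and mir-146b rows, 1 line per mouse coloured by group. Each mir-21a line is higher on the right, and the steepest mir-142a and mir-223 lines belong to mouse gRho mouse 1.

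One library weighed on the eye comparison. Of the 23 libraries, the right retina of mouse gRho mouse 1 was highest for mir-142a (58.9 CPM), mir-223 (7.84 CPM), mir-21a (6.82 CPM) and the mir-21a precursor row (25.3 CPM), and lowest for mir-146b (0.204 CPM). It was also the lowest for the photoreceptor cluster, at 52.9 CPM beside 943 CPM in its left eye, and the highest for the miRNAs of lens, cornea and surface epithelium (mir-184, mir-205, mir-200a, mir-200b and mir-203), at 298 CPM beside 80.3 CPM. Their part in the result was not tested. The 2 libraries lowest over the photoreceptor and miR-124 rows were taken as poor in retinal miRNAs, this right retina and uninjected mouse 2. Leaving them out removed only mouse gRho mouse 1 from the eye comparison, since uninjected mouse 2 had no right-eye library. The right-over-left values were then 0.62 for mir-21a, 0.22 for mir-142a, 0.35 for mir-223 and -0.50 for mir-146b.

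The spread between libraries of a group exceeded counting noise in each graded row. The chi-square per degree of freedom within groups was 39.1 for mir-142a, 7.25 for mir-223, 7.06 for mir-21a and 2.86 for mir-146b, and 19.5 for the precursor row of mir-21a, where counting alone gives a value near 1. This ratio grows with the number of reads in a row, so it does not rank the rows by how far depth limited them.

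Other loci of the same biology were listed by name. Of the other leukocyte loci (mir-150, mir-342 and the mir-181a and mir-181b copies), 6 were tested and 0 passed in any of the 10 comparisons. Of 16 other loci linked to NF-kB signalling or macrophage activation (the mir-9 copies, mir-132, mir-212, mir-125a and both mir-125b copies, mir-99b, let-7e, mir-10a, mir-31, mir-34a, mir-27a, mir-23a and mir-24-2), 14 were tested and 0 passed, and the rows of mir-10a and mir-34a jumped between levels. For uninjected over WT the median log2 fold change was 0.48 in the leukocyte list and 0.24 in the NF-kB list, beside -0.09 over all rows. Both lists hold rows that are not particular to leukocytes. Examples are the mir-181 copies (mir-181a-2 at a median of 197 CPM) and the neuronal mir-9 copies (mir-9-2 at 3325 CPM). Which cells these medians reflect was not tested. The graded members had a median of -0.18 for uninjected over WT, with 1 of 4 positive. The 3 miR-124 rows, of a neuronal miRNA reported to keep microglia quiescent, differed by a median of -0.77 in that comparison and 0 passed. The 3 photoreceptor rows were lower beside them, by a median of -1.02, and 0 passed. The WT libraries stood apart in both lists, with miR-124 sums of 498 CPM in WT mouse 1 and 187 CPM in WT mouse 2 and photoreceptor sums of 1101 and 306 CPM, and the part of either in the result was not tested. Among the cell type marker lists 1 row passed, the vessel-wall locus mir-143, in mouse gRho over WT (log2 -1.84, SE 0.41, edgeR adjusted p = 0.0138). The lists had 3 photoreceptor, 3 miR-124, 2 pigment epithelium and glia, 2 red blood cell, 3 vessel, 2 muscle and 5 surface epithelium rows tested. Over all 382 rows 3.14% were called in that comparison. Of the 3 vessel rows 1 was higher and 2 were lower (median -0.16), and mir-145a and mir-126a did not pass. mir-143 stood at 3.76 to 10.6 CPM in mouse gRho mice, against 7.98 and 25.2 CPM in WT mice 1 and 2. Its log2 fold change was -0.42 without WT mouse 2.

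Rows whose pattern over the libraries was most like that of mir-142a were sought among 125 graded rows averaging 10 CPM or more. The highest were mir-106b (Spearman rho 0.82, n = 23 libraries), a miRNA of the miR-17 family, mir-28a (rho 0.81) and mir-322 (rho 0.72). With both retina-poor libraries left out they were 0.80, 0.79 and 0.65 (n = 21). These rows share their libraries and their denominator with mir-142a, and eyes of a mouse are not independent, so the values are a description. Among the members, mir-142a had a rho of 0.49 with mir-21a and 0.36 with mir-223, and of 0.43 and 0.22 without those libraries.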

How the data were processed

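Small RNA libraries (NEXTflex small RNA v3 kit, Trizol RNA, per the labels' protocols) of 23 retinas were used. The authors deposited whole-number counts of reads for each miRNA locus, split by annotation class, with a second table of reads by alignment class. The submitters' processing notes name DESeq2. No aligner, counting program, annotation or build is given in the sources used here. Rows of the members were matched by name, with 0 columns unused. Jumping rows, set aside, reached 30 reads in some library and had, among sorted log2(CPM + 0.5) values, a gap of 3.5 or more, or of 2 or more with 2 libraries on either side. The design had assumed that each row counts 1 miRNA. Members, lists and this rule were chosen with earlier results of these data known.

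Titles were read as cage, ear mark and eye, an inference. Eyes were summed to 15 mice, so p-values cover the spread among these sums, part of which may be technical if the titles mean otherwise. edgeR 4.0.16 (R 4.3.3, quasi-likelihood, robust, 5 groups in 1 fit, mature miRNA reads with TMM factors, a minimum of 10 counts in 3 or more mice, Benjamini-Hochberg) gave all adjusted p-values, and DESeq2 1.42.0 was an alternative. The edgeR fit was also run on simulated counts with the same spread for every row. That run does not bear on the spread of the rows here. Eyes were compared over libraries with a term for the mouse. Saline comparisons assume that the 1 saline mouse varies like the others. Intervals of CPM are exact binomial and cover counting error only. Named rows are the 6 members, list loci past the threshold and the 3 rows most like each graded member of at least 10 CPM. Sequences are from RefSeq (GRCm38.p6), where 6 of 6 loci matched.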

Additional observations from a re-analysis of the deposited data

Results flagged for a closer look

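Of 12 groups checked for a sample far from the others, 2 had one. Chance gives one in about 1 in 20 groups only where values are independent and normally spread. Eyes of a mouse and the jumping rows of mir-146a and mir-155, both included here, do not meet this. Mouse gRho mouse 5 stood at 55.9 CPM of mir-142a, above the other 6 mice of the group (26.6 to 39.2 CPM). Its gap to the next mouse was 0.5685 of the range of the group, which passed the limit of the check only narrowly. Without mouse 5 the log2 fold change of mouse gRho over uninjected was -0.29 (edgeR adjusted p = 0.956), against -0.09 with that mouse. The right eye of uninjected mouse 1 stood at 0.235 CPM of mir-146a, against 373 to 521 CPM in the other 4 uninjected libraries. That row jumps between 2 levels in other groups as well.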

How the results depend on the processing

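The count of members past the threshold was 0 of the graded rows in each of the 10 comparisons under every alternative run, and mir-146a and mir-155 were set aside under each of the 4 other settings of the jump rule. Alternative values of single members were kept for uninjected over WT, for mouse gRho, human gRHO and saline over uninjected, and for right over left eyes. For the other comparisons only the count past the threshold was kept. Of the 328 alternative values of single members, 298 kept their direction and 30 turned sign, all of them from values of at most 0.56 in size. For mir-142a, uninjected over WT (-0.02), the value was 0.039 with DESeq2 size factors, 0.011 with total reads as library size, 0.18 with no filter, 0.039 with DESeq2, 0.18 with jumping rows kept, 0.070 with these groups alone, 0.047 with all annotation classes and 0.42 without TMM factors. Without TMM factors mir-223 stood at 0.14 for uninjected over WT and -0.059 for mouse gRho over uninjected, and mir-21a at -0.10 for human gRHO over uninjected. Without rRNA-rich libraries mir-142a stood at 0.11 and mir-223 at -0.063 for mouse gRho over uninjected. That setting dropped all libraries of uninjected mice 2 and 3 and kept uninjected mouse 1 alone, so rRNA and the loss of mice cannot be told apart. Without libraries poor in retinal miRNAs mir-21a stood at -0.040 for mouse gRho and -0.081 for human gRHO over uninjected. For the last it was -0.0038 with jumping rows kept and -0.016 with these groups alone. Leaving out 1 mouse in turn gave, for uninjected over WT, -0.070 to 0.16 for mir-142a, -0.68 to 0.41 for mir-223 and -1.03 to 0.56 for mir-21a. For mouse gRho over uninjected it gave -0.54 to 0.14 for mir-146b and -0.12 to 0.22 for mir-223, for human gRHO over uninjected -0.89 to 0.10 for mir-146b and -0.17 to 0.23 for mir-21a, and for saline over uninjected -0.41 to 0.26 for mir-146b. The causes were not tested. The fits of all annotation classes and without TMM factors, and the eye comparison without libraries poor in retinal miRNAs, were chosen after seeing the data. No paired analysis was possible because the labels give no replicate numbers shared between groups, which concerns the comparisons of groups. Right and left eyes were compared within mouse. Whether group size or depth limited the calls was not tested, and mir-146b had as few as 2 reads in a library.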
